A study of Homo sapiens with 3 samples.

Results

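The fragments described here are box C/D small nucleolar RNA (snoRNA) sequences of 18 to 24 nt, the length range of microRNAs (miRNAs), sequenced from the HEK293 line, which was established from human embryonic kidney. The fragments were chosen by their read length, a measured value, and by lying on the sense strand of a box C/D snoRNA other than the U3 entry and the U14A entry. Reads with the same snoRNA, first position and last position were pooled into 1 fragment. This gave 1029 fragments with 1855 reads, out of 8286 distinct fragments of any length and any snoRNA class. The 3 libraries form 1 group with no treatment and no control arm. Total RNA was taken up by phenol and chloroform extraction, small RNA was cleaned on magnetic beads, and the Ion Total RNA-Seq Kit v2 served to prepare the libraries. Whether the 3 libraries stem from separate cultures is not stated in the labels. The p-values therefore measure only how far these libraries vary, and that variation may be technical.

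Box C/D snoRNAs guide the 2′-O-methylation of ribosomal and spliceosomal RNA. Each carries a box C near its 5′ end and a box D near its 3′ end, which come together with the terminal stem to form the platform for fibrillarin, NOP56, NOP58 and SNU13. Most human box C/D snoRNAs are cut from the introns of host genes and trimmed to their mature ends by exonucleases. Pieces of snoRNAs are found in small RNA libraries of many cell types, and some have been described as acting like miRNAs.

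The 3 snoRNAs below carry leading fragments that had reads in all 3 libraries, and are shown whole, 5′ to 3′, as DNA letters, so that the place of the fragment can be seen. Capitals mark the fragment. Sequences came from GENCODE 29 transcripts at the RefSeq position of each gene on GRCh38.
SNORD45A, fragment 1 to 19: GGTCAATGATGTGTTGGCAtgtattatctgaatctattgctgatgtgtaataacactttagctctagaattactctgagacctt
SNORD11, fragment 66 to 83: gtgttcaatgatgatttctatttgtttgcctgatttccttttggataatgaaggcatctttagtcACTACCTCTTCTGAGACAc
SNORD102, fragment 2 to 24: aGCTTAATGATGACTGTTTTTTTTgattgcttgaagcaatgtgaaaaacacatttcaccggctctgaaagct

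On GRCh38 the SNORD45A fragment lies at chr1:75787889-75787907, plus strand, within the RABGGTB gene. The SNORD11 fragment lies at chr2:202293116-202293133, plus strand, in an intron of NOP58, itself a core protein of box C/D particles. The SNORD102 fragment lies at chr13:27255065-27255087, plus strand, within RPL21, a gene for a protein of the large ribosomal subunit. SNORD45A and SNORD102, taken as whole snoRNAs, also overlap an exon of at least 1 annotated transcript of the host gene.

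The next sequences are fragments alone, chosen as the further leading fragments with a reference sequence. Capitals mark an exact box C (TGATGA) or an exact box D (CTGA).
SNORD4A, 3 to 21: tgcagaTGATGAcactgta
SNORD73A, 2 to 19: ataagTGATGAaaaaagt
SNORD73A, 40 to 63: agtgataacaacatttttCTGAtg
SNORD18A, 2 to 22: agtagTGATGAaattccactt
SNORD29, 39 to 62: gtgaaaatacatgaacacCTGAga
SNORD4B, 47 to 68: gattagtcataattaaCTGAct
SNORD30, 49 to 67: gagactCTGAaatCTGAtt
SNORD24, 1 to 21: tgcagatgatgtaaaagaata
The SNORD24 fragment has no capitals because its box C reads TGATGT in place of TGATGA, as does that of SNORD45A above. The 8 fragments divide into pieces that begin at or near position 1 and hold box C or its TGATGT form, and pieces that stop a few bases after box D.

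The libraries contributed comparable numbers of short reads from unequal totals. Libraries 1, 2 and 3 held 19989, 11958 and 19092 snoRNA reads, of which 18428, 11004 and 16962 were sense box C/D reads once U3 and U14A were left out. The 18 to 24 nt reads numbered 581, 664 and 610, on 112, 118 and 109 snoRNAs. Length chose these reads, so their share is a description: 3.15% of the box C/D reads in library 1 (95% Clopper-Pearson interval 2.91 to 3.42), 6.03% in library 2 (5.60 to 6.50) and 3.60% in library 3 (3.32 to 3.89), or 4.26% ± 1.55 (SD, n = 3). Library 2 stood above the other libraries here and also for 27 to 31 nt reads, which took 12.1% of its box C/D reads against 4.04% in library 1 and 3.72% in library 3. Over the snoRNAs with at least 10 short reads in a pair of libraries, the counts of each pair differed by more than counting error, with a chi-square per degree of freedom between 2.29 and 2.87. A fragment with no read in libraries 1, 2 and 3 may hold up to 0.516%, 0.452% and 0.492% of the short reads, taking 3 counts as the floor. Reads carried no molecular identifiers, so intervals and floors cover counting error only.

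Reads were spread over the whole length window, with a high at 18 and 19 nt and a smaller one at 23 nt. Reads of 18 nt made up 19.5% ± 3.5 of the short reads (SD, n = 3), those of 19 nt 17.4% ± 0.13, those of 21 nt 11.9% ± 1.9, those of 23 nt 15.4% ± 2.2 and those of 24 nt 10.0% ± 0.82. The window has no natural edge in these files. At its upper edge 187 reads of 24 nt were inside and 226 reads of 25 nt just outside. At its lower edge 363 reads of 18 nt were inside, and the reads analysed here started at that length.

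Short fragments came from nearly the whole box C/D family. Of 144 snoRNA entries with sense reads, 135 gave at least 1 short read and 88 gave one in every library. The 9 without any were SNORD111, SNORD124, SNORD125, SNORD49B, SNORD59A, SNORD59B, SNORD73B, SNORD86 and SNORD88B. It took 24 snoRNAs to reach 50% of the short reads, against 5 for the reads of 27 to 31 nt. The 3 leading snoRNAs held 11.5% ± 4.0 of the 18 to 24 nt reads and 42.5% ± 13 of the 27 to 31 nt reads (SD, n = 3), so no small set of snoRNAs dominated the shorter class. snoRNAs with more reads of other lengths had more short reads (across 144 entries in the pooled libraries, Pearson's r = 0.74 on log2 counts and Spearman's rho = 0.76). Entries share their libraries and are not independent replicates, so this is a description.

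SNORD45A led the snoRNAs of origin. It gave 16, 56 and 31 short reads in libraries 1 to 3, or 5.42% ± 2.86 of the class (SD, n = 3). Library 2 was highest and library 1 lowest, although library 1 held the most SNORD45A reads of all lengths (742, against 271 and 379). SNORD102 followed with 10, 22 and 28 reads (3.21% ± 1.4), again with library 1 lowest. SNORD38B gave 14, 17 and 22 reads (2.86% ± 0.65) and SNORD29, from the SNHG1 gene, 13, 16 and 19 (2.59% ± 0.46), which differed little between libraries. SNORD11 gave 7, 23 and 19 reads (2.59% ± 1.2).

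The remaining leaders were closer together than their spread. SNORD2 gave 18, 19 and 10 reads, SNORD4A gave 10, 24 and 13, and SNORD42B gave 21, 11 and 10. SNORD13, which acts in the processing of the 18S rRNA precursor, gave 19, 14 and 5 reads. SNORD31 gave 22, 8 and 6, SNORD27 gave 14, 16 and 7, and SNORD44 gave 10, 12 and 14. SNORD13 and SNORD31 were highest in library 1, where SNORD45A, SNORD102 and SNORD11 were lowest. Together the 12 leaders held 32.0% of the short reads. Read counts were not corrected for snoRNA length.

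A high count of short reads did not mean that a snoRNA was read mainly as short pieces. Among 123 snoRNAs with at least 30 reads in all, the short class took a median of 3.98% of a snoRNA's own reads. SNORD28 was at the top with 24 of 45 reads (53.3%), but 21 of the 24 came from library 1, with 2 and 1 in libraries 2 and 3. SNORD38A followed with 10 of 32 (31.3%), SNORD13 with 38 of 151 (25.2%) and SNORD10 with 10 of 46 (21.7%). SNORD11 had 14.3% and SNORD45A 7.40% of their own reads in the class. These shares are pooled and differed between libraries. In libraries 1 to 3 SNORD45A had 16 of 742, 56 of 271 and 31 of 379 reads in the class. SNORD11 had 7 of 121, 23 of 68 and 19 of 154, and SNORD13 had 19 of 62, 14 of 24 and 5 of 65. SNORD31 and SNORD100, which were abundant at other lengths with 2058 and 1589 reads in all, had 1.75% and 1.70%.

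Few fragments were seen again from library to library. Of the 1029 fragments, 716 (69.6%) were a single read. A total of 809 fragments (78.6%) occurred in 1 library, 173 (16.8%) in 2 libraries and 47 (4.57%) in all 3. The 47 recurrent fragments came from 30 snoRNAs and held 373 reads, 20.1% of the class, at 7.94 reads per fragment against 1.18 for those of 1 library. The 27 to 31 nt class had 69 of 714 fragments (9.66%) in all libraries, and they held 62.7% of its reads. Fragments with more reads are more often seen again whatever their origin, and the longer class has more reads per fragment, so these counts were not tested against each other. Linking fragments of a snoRNA whose first and last positions each differed by at most 1 nt gave 79 groups with reads in all libraries, beside the 47 fragments. Links could chain, so members of a group may differ by more than 1 nt. Restricting the class to 20 to 24 nt left 26 fragments in all libraries.

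The recurrent fragments repeated the layout of the printed sequences. Of the 47, 29 lay in the 5′ part of the snoRNA and began at its mature start, 15 stopped at the mature end, 2 were internal and 1 came from a snoRNA with no mature end to compare. Only 8 of them had 10 reads or more. SNORD45A 1 to 19 was the most abundant, with 7, 18 and 19 reads (2.34% ± 1.0 of the class), followed by SNORD11 66 to 83 with 4, 21 and 16 (2.16% ± 1.3). Both held a larger share of the class in libraries 2 and 3 (2.71% and 3.11% for SNORD45A, 3.16% and 2.62% for SNORD11) than in library 1 (1.20% and 0.688%).

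The next fragments were each seen 13 to 16 times. SNORD46 80 to 98 had 5, 4 and 7 reads, an even spread over the libraries, but the same letters occur in 1 further annotated gene, RF00218, so its origin is uncertain. SNORD102 2 to 24, which stops at the last base of a run of 8 T, and SNORD38B 1 to 20 had 2, 6 and 7 reads each. SNORD13 82 to 104 had 2, 11 and 2 reads, so library 2 supplied most of them. SNORD31 3 to 25 had 7, 5 and 1 reads, and SNORD45A 1 to 23 had 2, 7 and 4. The other 12 of the 20 leading recurrent fragments had 6 to 9 reads each over all libraries.

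**Figure D1:**
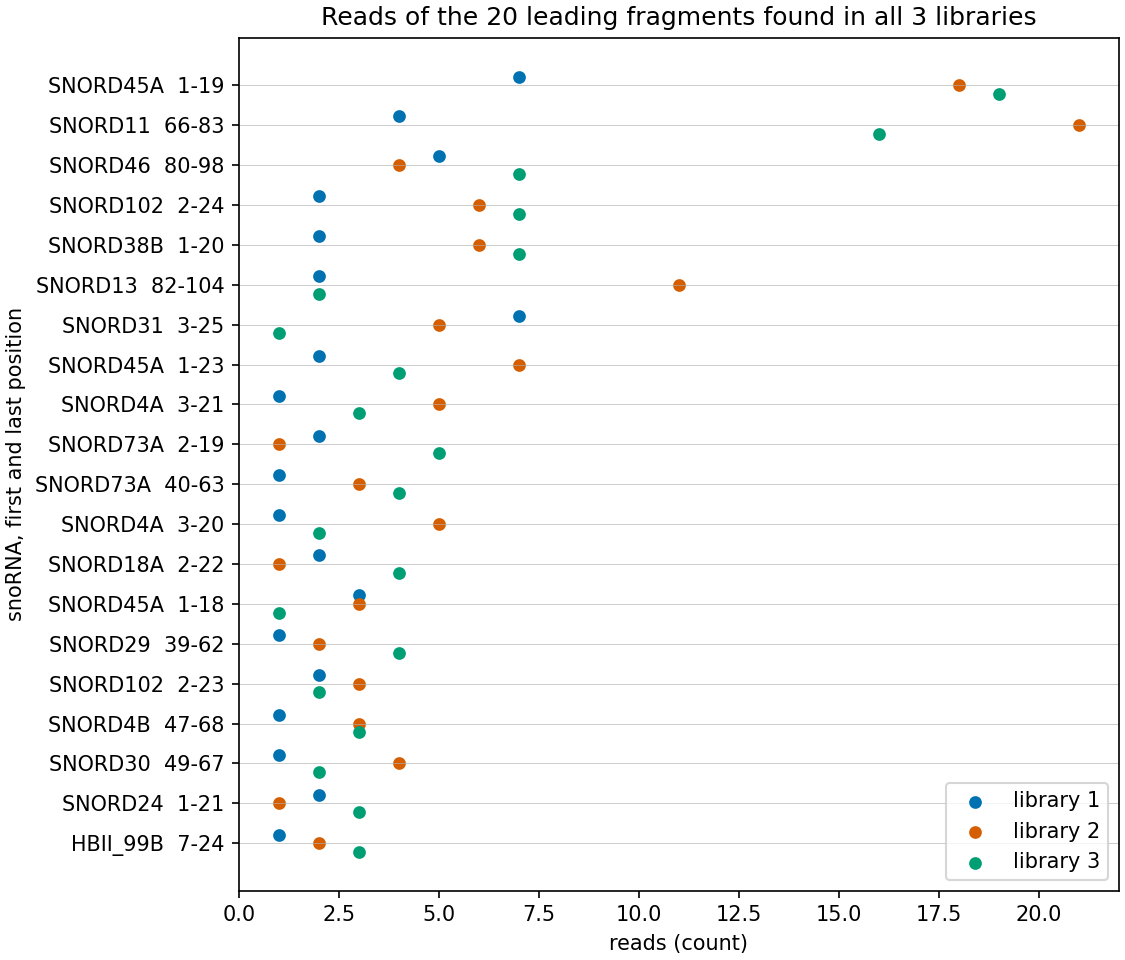
Reads (count, horizontal axis) of the 20 leading fragments found in all 3 libraries, named by snoRNA with first and last position (vertical axis), with 1 point per library. SNORD45A 1-19 and SNORD11 66-83 stand apart in libraries 2 and 3, with 16 to 21 reads each, while the other fragments reach at most 11 reads in any library.

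Some fragments were frequent in a single library. All 6 fragments with at least 5 reads in 1 library and none in the others came from library 1: SNORD13 81 to 104 with 10 reads, SNORD2 45 to 65 with 7, SNORD28 54 to 75 and SNORD95 42 to 63 with 6 each, and SNORD28 54 to 72 and SNORD47 1 to 19 with 5 each. At SNORD13 the libraries differed by 1 base: reads ending at position 104 began at 82 in all libraries (2, 11 and 2 reads) but at 81 in library 1 alone (11, 0 and 0 reads, 1 of them outside the class by its read length). With 7.94 reads as the average even of recurrent fragments, counts of this size carry a wide counting error.

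The ends of the short reads lay mostly at the ends of the mature snoRNA. The mature start and end were taken as the commonest first and last position of reads that covered at least 90% of the snoRNA, and a fragment was counted at an end when it came within 2 nt of it. By this measure 82.4% (95% Clopper-Pearson interval 78.9 to 85.5), 85.0% (81.9 to 87.7) and 87.0% (84.0 to 89.6) of the short reads shared a mature end in libraries 1 to 3, a mean of 84.8% ± 2.3 (SD, n = 3). The start was shared by 55.2% ± 2.0 and the end by 29.6% ± 4.2, while 15.2% ± 2.3 were internal. Of all possible windows of the same lengths on the same snoRNAs, 14.3% ± 0.25 would meet the same condition. For 8 snoRNAs with 80 short reads there were no near full-length reads to compare with, among them SNORD13.

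With the limit of 2 nt, fragments of 27 to 31 nt shared a mature end about as often, in 85.0% ± 6.3 of their reads (SD, n = 3). The per-library difference in log2 odds between the classes was -0.11 ± 1.05, with an exact two-sided sign-flip permutation p of 1. With 3 libraries this test cannot give a p below 0.25, so a difference is not excluded. The sign of this difference turned positive without library 1, at 0.46, and also when an end had to fall on exactly the same base, at 0.57 ± 0.42. With ends on the same base the short class was higher in every library (exact two-sided sign-flip permutation p = 0.25). The difference became more negative with ends within 5 nt, at -1.56 ± 1.11, and with each distinct fragment counted once, at -0.36 ± 0.23. Without the 3 leading snoRNAs of 27 to 31 nt, chosen after seeing the data, it was -0.61 ± 0.36. In these last 3 cases the short class was lower in every library (exact two-sided sign-flip permutation p = 0.25 in each). The short class had its first base exactly on the mature start in 43.9% ± 1.4 of reads, against 28.9% ± 6.7 of the 27 to 31 nt reads, and was higher in 3 of 3 libraries. Its last base was exactly on the mature end in 23.3% ± 2.7 against 29.1% ± 3.1, and lower in 3 of 3. The short class was thus placed more often on the exact first base of the mature snoRNA and less often on its exact last base in these libraries, which was not tested. Within 2 nt of the mature start the shares were 55.2% ± 2.0 and 48.5% ± 8.5, with the short class higher in 2 of 3 libraries. In libraries 1 to 3, 18.6%, 18.4% and 13.5% of the 27 to 31 nt reads began 1 base after the mature start. For the short reads this was 7.27%, 6.49% and 8.94%. The exact-base shares were not recomputed without the 3 leading snoRNAs of 27 to 31 nt.

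**Figure D2:**
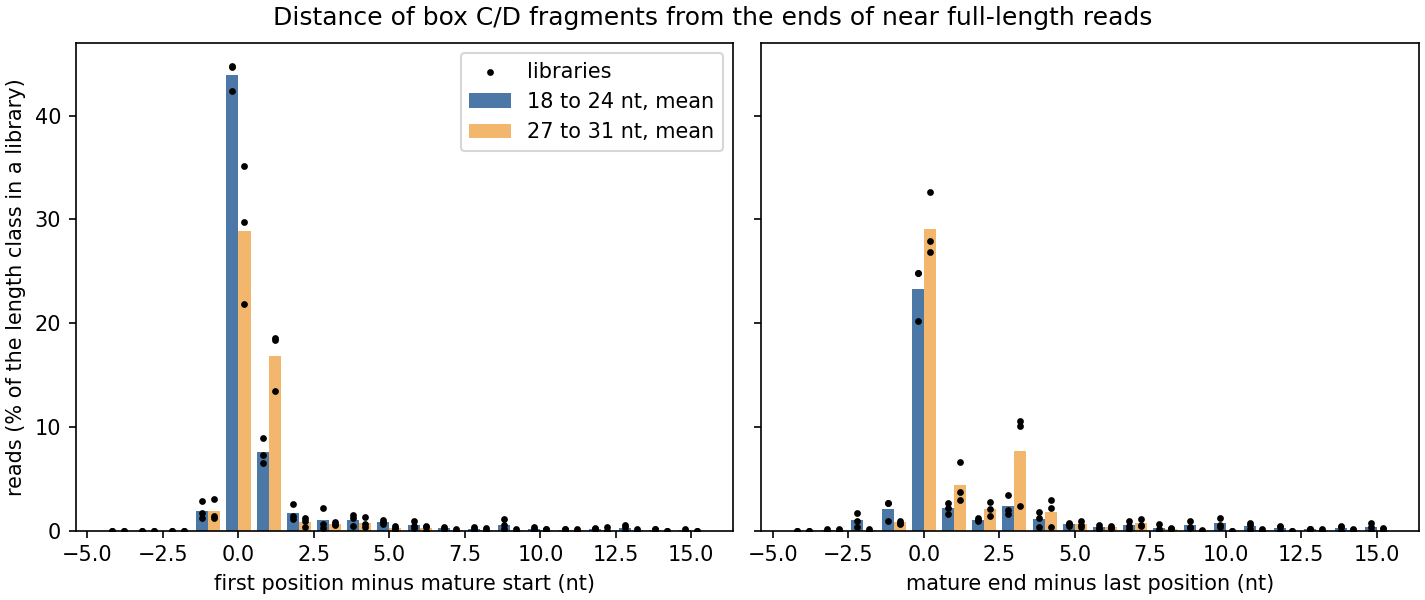
Distance in nt of the first base from the mature start (left) and of the last base from the mature end (right), as % of the reads of a length class in a library (bars, mean of 3 libraries, points, the libraries). In the short class 43.9% of reads sit at distance 0 from the start and 23.3% at distance 0 from the end, against 28.9% and 29.1% for 27 to 31 nt.

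The 5′ part of the snoRNA gave more short reads than the 3′ part in every library. A read was placed by whether its midpoint lay before or after the middle of the snoRNA. Toward the 5′ side libraries 1, 2 and 3 had 370, 379 and 361 reads, against 211, 284 and 249 toward the 3′ side, or 63.7%, 57.2% and 59.2% in the 5′ part (mean 60.0% ± 3.3, SD, n = 3). This is a log2 ratio of 0.59 ± 0.20, a 1.50-fold excess that held in 3 of 3 libraries, with the smallest exact two-sided sign-flip permutation p that 3 libraries allow, 0.25. Reads of 19 nt leaned furthest to the 5′ part, at 67.1% of the pooled reads, and those of 22 nt least, at 54.1%. A single fragment, SNORD45A 1 to 19, had 44 reads, beside 216 reads of 19 nt in the 5′ part in all. The lean at 19 nt was not recomputed without it.

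The 27 to 31 nt reads did not lean to 1 side in the same way. They counted 445, 568 and 320 on the 5′ side against 300, 757 and 311 on the 3′ side, so that library 2 was on the other side of even, and their mean was 51.1% ± 8.4 (SD, n = 3). The short class had the higher 5′ share in 3 of 3 libraries, by 0.52 ± 0.30 on the log2 scale (1.44-fold, exact two-sided sign-flip permutation p = 0.25, the smallest possible). SNORD78, SNORD44 and SNORD2 held 1243 of the 2702 reads of 27 to 31 nt. Without these 3 snoRNAs, an alternative chosen after seeing the data, the difference was 0.33 ± 0.43. It no longer had the same sign in every library (exact two-sided sign-flip permutation p = 0.5), while the lean of the short class itself was 0.65 ± 0.22. The same sign was also lost when each distinct fragment was counted once, at 0.22 ± 0.29 (exact two-sided sign-flip permutation p = 0.5). The lean of the short class itself was then 0.57 ± 0.34 (exact two-sided sign-flip permutation p = 0.25).

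Some snoRNAs gave short reads mainly from 1 side, and others from both, such as SNORD73A with 16 and 15 reads in the 5′ and 3′ part, SNORD30 with 12 and 11 and SNORD118 with 9 and 10. The counts in the 5′ and the 3′ part were compared per snoRNA with edgeR's quasi-likelihood test over all 78 snoRNAs of any class with at least 10 placed reads, 63 of which belong to the 135 described here. With Benjamini-Hochberg adjustment at 0.05, 15 of the 63 had more reads in the 5′ part and 4 had more in the 3′ part. Over all 78 snoRNAs tested, 20.5% were called toward each side, 41% in all. The 63 are part of these 78 and gave 15 of the 16 calls toward the 5′ part and 4 of the 16 toward the 3′ part. The shares over all 78 are therefore no separate background for the 63. The median log2 ratio of 3′ to 5′ reads was -0.74 over the 63 and -0.26 over all 78. The split between the sides depended on the scaling: with a normalisation factor for each side in place of a shared library size, which moved the median of all snoRNAs by 0.29 toward the 3′ side, 3 were called 5′ and 6 called 3′. Without library 3 edgeR called none at the adjusted threshold, with 6 toward the 5′ part and 4 toward the 3′ part at an unadjusted p under 0.05. DESeq2 on all libraries called 1 toward the 5′ part and 2 toward the 3′ part.

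The clearest 5′ source was SNORD45A, with 15, 53 and 30 reads toward its 5′ end against 1, 3 and 1 toward its 3′ end. The groups of values did not overlap, and the log2 ratio of 3′ to 5′ reads was -4.20 ± 0.45 (SE; edgeR adjusted p = 3.05e-15). The call was kept in 6 of 7 alternatives and lost without library 3 (edgeR adjusted p = 0.18, and 1.13e-20 at the lowest over the alternatives). SNORD31 had 19, 7 and 6 reads against 3, 1 and 0, a log2 ratio of -2.95 ± 0.80 (edgeR adjusted p = 0.00272), lost without library 1 or 3 and by DESeq2. SNORD100, a snoRNA of the RPS12 gene, had 13, 8 and 4 against 0, 0 and 2, a log2 ratio of -3.35 ± 1.09 (edgeR adjusted p = 0.0142), lost without any 1 library and by DESeq2. Both kept their direction in 3 of 3 libraries.

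Further 5′ calls were less firm. SNORD57 had 12 reads against 1, SNORD80 had 21 against 2 and HBII_99B had 21 against 2 over the libraries, with edgeR adjusted p between 0.0421 and 0.0498. Of the 15 calls toward the 5′ part, those of SNORD27, SNORD38A, SNORD42B, SNORD44, SNORD50B, SNORD57, SNORD98 and SNORD102 were kept in none of the alternatives in which they were tested. The highest adjusted p among these 8 was 0.628, for SNORD27 (edgeR without library 2). For SNORD38A, SNORD50B, SNORD57 and SNORD98 DESeq2 gave no adjusted p, which was counted as lost.

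The 3′ sources were SNORD11, SNORD13, SNORD74 and SNORD10. SNORD11 had 5, 23 and 18 reads in the 3′ part against 2, 0 and 1 in the 5′ part, a log2 ratio of 3.68 ± 0.70 (SE; edgeR adjusted p = 5.35e-06), without overlap between the sides. It was lost without library 2 or 3, and its adjusted p ranged from 5.46e-11 to 0.276 over the alternatives. SNORD13 had 19, 14 and 4 against 0, 0 and 1, a log2 ratio of 4.68 ± 0.95 (edgeR adjusted p = 2.25e-05), lost without library 1 or 3. SNORD74, of the GAS5 gene, had 5, 13 and 7 against 0, 1 and 2, a log2 ratio of 2.93 ± 1.02 (edgeR adjusted p = 0.0238), lost without any 1 library, without the filter on low counts and by DESeq2. SNORD10 had 10 reads in the 3′ part and none in the 5′ part (edgeR adjusted p = 0.0101), lost without the filter on low counts. DESeq2 gave it no adjusted p, which was counted as lost. With any 1 library left out it had too few reads to be tested, so only 4 alternatives covered it. Of the other leaders, SNORD29 (5, 3 and 7 reads in the 5′ part against 8, 13 and 12) and SNORD2 (4, 3 and 6 against 14, 16 and 4) did not pass, with edgeR adjusted p of 0.0790 and 0.0547.

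**Figure D3:**
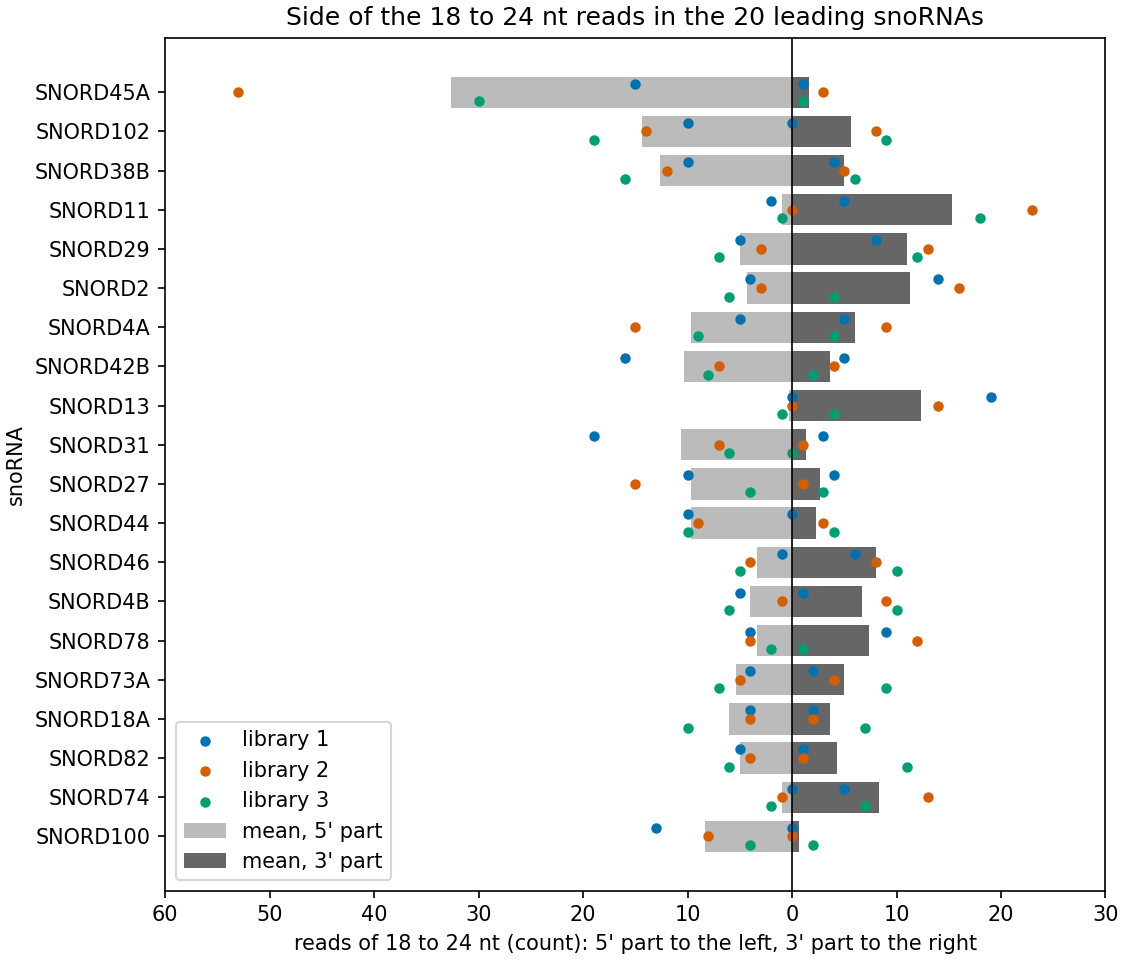
Short reads (count) in the 5′ part (left of the line) and the 3′ part (right of the line) of the 20 snoRNAs with the highest mean share, with bars for the mean of 3 libraries and points for the libraries. SNORD45A reaches 53 reads on the left with at most 3 on the right, and SNORD11 reaches 23 on the right with at most 2 on the left.

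The same snoRNA could lean to opposite sides in the different length classes. SNORD38B had 38 short reads toward its 5′ end against 15 toward its 3′ end, but 7 and 25 at 27 to 31 nt. SNORD31 had 32 and 4 short reads but 11 and 27 of the longer class. SNORD11 had 3 and 46 short reads but 5 and 1 longer ones, and SNORD29 had 15 and 33 but 40 and 8. SNORD44 kept its side, with 29 and 7 short reads and 420 and 9 longer ones, as did SNORD45A with 98 and 5 against 25 and 5. These differences per snoRNA were not tested. The classes shared 9 of their 20 leading snoRNAs, 45% of each list, and the reads per snoRNA were correlated with a Spearman's rho of 0.70 across 144 entries from the same libraries.

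The leading snoRNAs differed in how far their short reads kept to 1 mature end. SNORD45A had 92.2% of its short reads at the mature start, SNORD31 88.9% and SNORD27 78.4%, and SNORD11 had 93.9% at the mature end. Others used both ends: the start and the end held 65% and 23.3% in SNORD102, 61.7% and 31.9% in SNORD4A, 66.7% and 21.4% in SNORD42B, and 27.1% and 66.7% in SNORD29. In SNORD38B they held 35 and 14 of 53 reads. Internal reads made up 44.7% in SNORD2 and 25% in SNORD44. SNORD13 had no mature end to compare. At the start of SNORD45A, reads of 18 to 25 nt numbered 7, 44, 3, 6, 8, 13, 13 and 16, so 1 length stood out at 19 nt and a broader group followed from 23 nt. The 19 nt reads came from all libraries (7, 18 and 19), while those of 24 nt came mainly from library 2 (0, 11 and 2).

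At the mature end of SNORD11, 41 reads spanned 18 nt and only 1 each spanned 21 and 24 nt, with 3 at 25 nt. Since 18 nt is the shortest read analysed here, shorter pieces with the same end would not have been seen. SNORD38B had 15 reads of 20 nt at its start, against 2 of 19 nt and 4 of 21 nt. SNORD46 had 16 reads of 19 nt at its end, against 1 each of 18 nt and 20 nt.

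**Figure D4:**
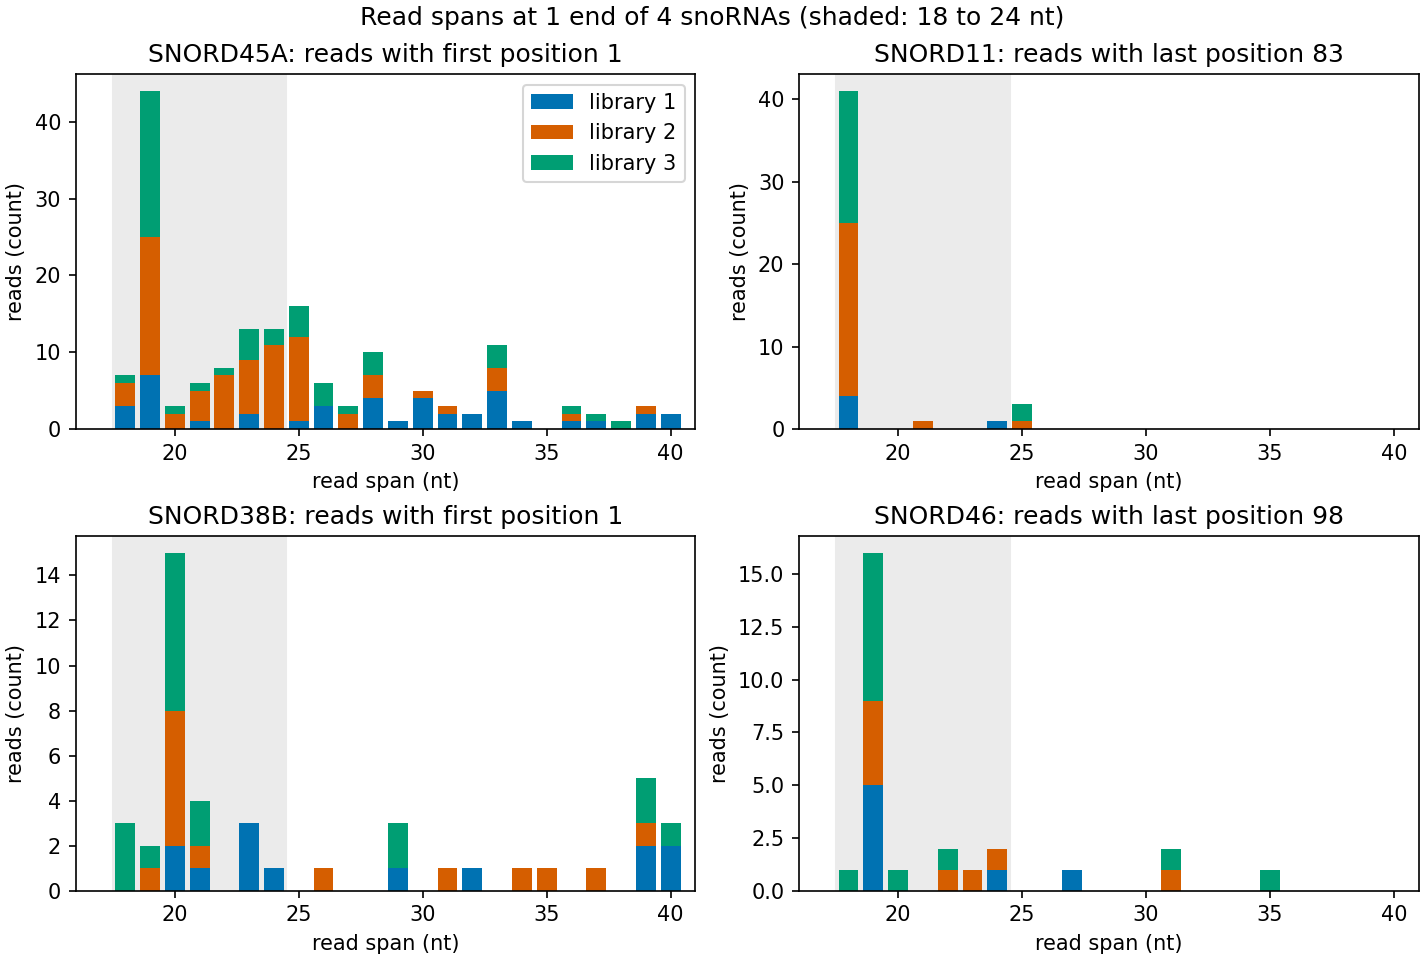
Reads (count, vertical axis, stacked by library) by span in nt (horizontal axis, shown up to 40 nt) among reads that share the mature start or end of SNORD45A, SNORD11, SNORD38B and SNORD46, with 18 to 24 nt shaded. Each has 1 leading span, with 44 reads at 19 nt, 41 at 18 nt, 15 at 20 nt and 16 at 19 nt.

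At 3 snoRNAs reads of the remaining piece met the fragment exactly. In SNORD45A, 2, 3 and 6 reads began at position 20, the base after the 1 to 19 fragment, and 7 of these 11 ran to the mature end at 83, while positions 17 to 19 and 21 to 23 had 0 to 2 reads each. In SNORD11, 2, 0 and 6 reads stopped at position 65, the base before the 66 to 83 fragment, and 7 of the 8 began at the mature start, but 5 further reads stopped at 63 and 3 at 68. In SNORD73A, 2, 1 and 6 reads stopped at position 39, the base before the 40 to 63 fragment, and 7 of the 9 began at the mature start. These 3 were chosen after their values were seen. Over all 781 fragments that share a mature end, 234 had a read that began or stopped exactly beside them, and 223 to 236 had one at offsets of 1 to 3 bases, so exact meeting was no more frequent than meeting nearby.

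Box motifs followed the side from which a fragment came. A reference sequence could be used for 659 fragments with 1257 reads (67.8% of the class) from 82 snoRNAs, by searching the letters TGATGA for box C and CTGA for box D on the snoRNA strand. Box C alone was in 35.7% ± 1.8 of these reads, box D alone in 38.2% ± 3.0, both in 3.47% ± 1.9 and neither in 22.7% ± 2.7 (SD, n = 3). Of all windows of the same lengths on the same snoRNAs, 9.39% ± 0.65 held box C alone, 36.7% ± 2.4 box D alone, 1.33% ± 0.25 both and 52.6% ± 2.0 neither. CTGA also matches the inner copy of box D and other places. Only the exact TGATGA was counted as box C, so a read with neither motif may still hold a variant box. The start fragments of SNORD45A and SNORD24, with TGATGT, were counted under neither. SNORD45A 1 to 19 alone had 44 reads, beside 284 reads with neither motif in all. Among reads of the 5′ part 63.7% ± 2.6 held box C and 7.06% ± 2.9 box D, and among reads of the 3′ part 96.1% ± 1.4 held box D and 0.609% ± 0.55 box C.

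**Figure D5:**
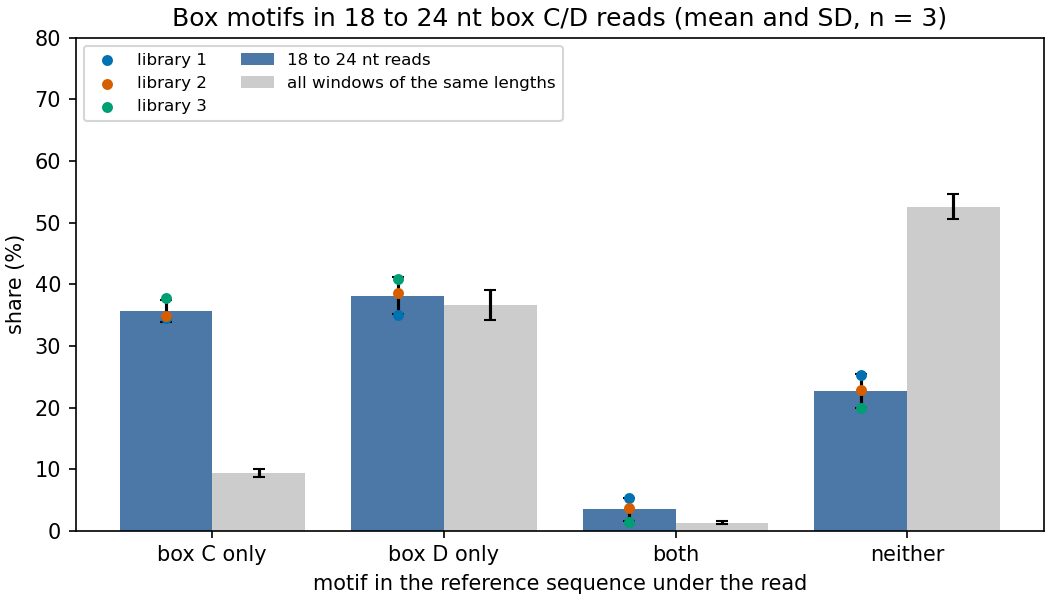
Share (%) of the 18 to 24 nt reads whose reference sequence holds box C alone, box D alone, both or neither (dark bars, mean and SD of 3 libraries, points, the libraries), beside all windows of the same lengths on the same snoRNAs (light bars, mean and SD). Box C alone is at 35.7% in the reads and 9.39% in the windows, and box D alone at 38.2% and 36.7%. Only exact TGATGA and CTGA were counted as boxes.

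The box positions tie in with the mature ends: in 77 of 82 snoRNAs the mature end lay 2 to 5 nt after the last CTGA. The first base of the reads was G in 33.6% ± 3.4 and C in 9.52% ± 0.92 (SD, n = 3), against 23.3% and 17.6% of the windows, while A was at 27.8% ± 2.7 against 28.5% of the windows. Since most reads began at a mature start, these shares describe few distinct positions. A total of 45 fragments with 79 reads (6.28% of those with a sequence) had the same letters in another annotated gene, the largest being SNORD46 80 to 98 with 16 reads, which also matches RF00218. SNORD50B 2 to 19, with 4 reads, also matches RF00278 and VPS29, and SNORD62A 64 to 86, with 3 reads, also matches SNORD62B. For all 45 the snoRNA of origin is uncertain.

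None of the 659 fragments with a sequence was identical to any of the 2545 mature human miRNAs in the RefSeq table, and no mature miRNA lay inside the 86 snoRNA sequences used. The snoRNAs without a usable sequence were not searched. Among them were SNORD78, SNORD88C, SNORD125 and SNORD126, which are listed below for a miRNA entry or miRNA-like pieces, so the result does not cover them. The first bases of a miRNA, positions 2 to 8, form its seed. Bases 2 to 8 of the short reads equalled a miRNA seed in 13.4% ± 1.8 of reads (SD, n = 3), and those of all windows in 12.4% ± 0.46, a difference smaller than the spread between libraries.

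Groups of snoRNAs that share a host gene or a role contributed as follows, with the groups having been chosen with earlier results known. Over all 144 entries the median snoRNA had 8 short reads, the median share of short reads in a snoRNA's own reads was 4.20%, and 59.9% of the pooled short reads lay in the 5′ part. The GAS5 gene, a non-coding host of 10 box C/D snoRNAs, gave 189 short reads from 10 of 10 members with a median of 16. They made up 10.2% ± 0.67 of the short reads, while GAS5 snoRNAs made up 15.0% ± 4.7 of all box C/D reads (SD, n = 3). Within the group the members differed: SNORD44 and SNORD80 had 29 and 21 reads in the 5′ part against 7 and 2 in the 3′ part, whereas SNORD74 had 3 against 25, SNORD77 3 against 13 and SNORD81 3 against 11. SNORD75 had 3 short reads among 470, the smallest part of its own reads in the group, at 0.638%.

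SNHG1, another non-coding host gene, gave 215 short reads from 8 of 8 members with a median of 24, which was 11.7% ± 3.3 of the short reads and 10.3% ± 1.7 of all box C/D reads. Among them SNORD25 had 24 short reads, SNORD30 had 23 and SNORD26 had 14. Of 9 snoRNAs listed for pre-rRNA processing, 5 were among the entries used, with 70 short reads, 38 of them from SNORD13 and 20 from SNORD118, which acts in the maturation of the 5.8S and 28S rRNAs. SNORD3B-2, a U3 copy with an entry of its own, gave 2. The 5 held 3.79% ± 1.9 of the short reads and 1.20% ± 0.31 of all box C/D reads, and 26.1% of their short reads lay in the 5′ part. SNORD13 set that value: without it, 17 of the other 31 placed reads (54.8%) lay in the 5′ part, a comparison made after seeing the data. Of 10 snoRNAs listed because they overlap a present or former miRNA entry or have been described as sources of miRNA-like pieces, 8 were among the entries and 7 gave short reads. The 8 had 85 short reads with a median of 6, or 4.58% ± 2.1 of the short reads against 7.41% ± 2.2 of all box C/D reads. Among them SNORD78 gave 13, 16 and 3 short reads, SNORD100 gave 13, 8 and 6, and SNORD126 gave 2, 6 and 0.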

How the data were processed

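The deposited values are raw counts of reads, per the file headers, listed by snoRNA entry, read length, first position and last position. Per the submitters' processing notes, GRCh38.p10 was the build. The aligner and the read filters were not given in the sources used here. A table of the whole series was not used. It has 2 per-sample columns that no sample title matches.

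Records of 18 to 24 nt with the last position not below the first were pooled by entry and positions. Libraries were numbered 1 to 3 in deposition order. Of 147 entries, 140 were named through the RefSeq gene table and 7 kept the file's name. snoRNA length was the highest position seen. A GENCODE 29 sequence was used where the gene's length equalled that position or exceeded it by 1 nt. Sequences of some loci are not printed here. Shares have exact 95% Clopper-Pearson intervals. Log2 ratios were tested over libraries by sign-flip permutation (exact, two-sided). Per-snoRNA sides were tested with edgeR 4.0.16 (quasi-likelihood test with Benjamini-Hochberg adjustment, the library entering as a block and both sides sharing its size), with DESeq2 1.42.0, other scalings and filters, other length and end limits and leaving out each library as alternatives. Counts were also simulated for the 78 snoRNAs tested, with a part of them shifted, toward the 3′ side only. There edgeR recovered 16.2% of the snoRNAs shifted 4-fold and 39.7% of those shifted 16-fold. Of the 55 and 128 calls made in these simulations, 5.455% and 0.781% were false. Software was matplotlib 3.10.9, SciPy 1.17.1, NumPy 2.4.6, pandas 2.3.3, Python 3.11.15 and R 4.3.3.

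The members and gene lists were chosen with earlier results of these data known. Named fragments were the 20 with reads in all libraries and the highest mean share. Named snoRNAs were the 12 with the highest mean share of short reads, the 5 per direction with the largest side ratio among those called, and members of the lists. Others were named after their values were seen, among them the snoRNAs with the highest short share of their own reads.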

Additional observations from a re-analysis of the deposited data

Results flagged for a closer look

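Reads of 18 to 24 nt also lay on the opposite strand of some box C/D snoRNAs, outside the sense reads described above. SNORD20 had 16 such reads (6, 3 and 7 in libraries 1 to 3) and SNORD116-10 had 5 (1, 2 and 2). The floor of 3 counts applies to a single library: SNORD20 reached it in each library, and SNORD116-10 was below it in each. There were no control samples to compare with. SNORD70, SNORD110 and SNORD57 had 1 opposite-strand read each.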

How the results depend on the processing

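Over the alternatives, 41 values of the main results counted as unchanged, 21 moved and 2 reversed. A tested log2 value counted as unchanged when it kept its sign, whatever its size. A share did so when it moved by less than its SD, and a count when it stayed within a set factor. The 19 edgeR calls of single snoRNAs were tested 119 times over the alternatives, where they were kept 31 times and lost 88 times. A missing DESeq2 adjusted p was counted among the losses. The mature-end comparison with 27 to 31 nt (log2 odds) reversed to 0.46 without library 1 and to 0.57 with ends at the same position. With ends within 5 nt the comparison gave -1.56, which counts as unchanged because the sign was kept. The range over libraries left out was -0.57 to 0.46. The share at a mature end moved to 82.0% at 20 to 24 nt, 81.6% with each distinct fragment counted once, 67.2% with ends at the same position and 92.0% with ends within 5 nt. The number of fragments in all remaining libraries was 86 to 123 when 1 library was left out and 26 at 20 to 24 nt. It was 79 groups when fragments within 1 nt were linked in chains. edgeR's 15 calls toward the 5′ part became 1 with DESeq2, 3 with TMM factors per column, 3 with no filter, 7 with no library block and 0 to 2 with 1 library left out. The 4 calls toward the 3′ part became 6 with TMM factors per column, 4 with no library block, 2 with DESeq2, 2 with no filter and 0 to 2 with 1 library left out. The fits with 1 library left out have fewer libraries and fewer snoRNAs tested (52 to 57). The cause of the other changes was not tested. The counts per fragment limit all of these results, since 716 of the 1029 fragments were a single read.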
